A study of Mus musculus with 5 samples.

Results

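The mRNAs of 10 tubulin genes were followed in whole hearts of newborn mice by poly(A) RNA-seq. The genes were chosen by symbol: Tuba1a, Tuba1b and Tuba1c (alpha tubulins), Tubb5, Tubb2a, Tubb2b, Tubb3, Tubb4b and Tubb6 (beta tubulins) and Tubg1 (gamma-tubulin). All 10 were present among the 49671 genes of the counts table and all 10 were among the 14880 genes that passed the filter on low counts. The series holds 5 libraries, all from C57BL6/J mice at postnatal day 2 (PN2): 3 CharmeWT pools of 9 hearts each and 2 CharmeKO pools of 3 hearts each, with hearts of littermates pooled by genotype before RNA extraction. In CharmeKO mice a poly(A) signal inserted in the Charme locus ends transcription of this muscle long noncoding RNA early, and the comparison asks which cardiac mRNAs differ when Charme is lost. A pool is the replicate here, and p-values measure the spread between pools. Because bulk tissue was sequenced, more cells of a type and more RNA per cell cannot be told apart.

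Microtubules are hollow polymers of alpha and beta tubulin heterodimers, and gamma-tubulin templates their nucleation. Mammals encode several alpha and beta genes, called isotypes, whose proteins differ mostly in the acidic C-terminal tail that extends from the microtubule surface and carries many of the tubulin modifications. In neonatal cardiomyocytes microtubules serve both the mitotic spindle and the lattice around the nucleus and the myofibrils, and the last rounds of cardiomyocyte division take place in the first days after birth. Cells also control their tubulin mRNAs by autoregulation: an excess of free dimers triggers decay of tubulin mRNAs while they are translated, through recognition of the first residues of the nascent chain by TTC5.

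The coding sequences of the isotypes are much alike, which bears on how reads were assigned to each gene. In the coding sequences of GENCODE M21 transcripts on GRCm38, Tuba1a and Tuba1b were 98.3% identical, Tuba1b and Tuba1c 98.4% and Tuba1a and Tuba1c 97.6%. These 3 genes sit side by side, Tuba1b at 98931425 to 98934565, Tuba1a at 98949837 to 98953703 and Tuba1c at 99029891 to 99038110 on chromosome 15.

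A second neighbouring pair is Tubb2a and Tubb2b on the minus strand of chromosome 13. Their last 60 coding bases before the stop codon, the part that encodes the tail, lie within the last coding exon at chr13:34074471-34074530 and chr13:34127474-34127533. They are shown with capitals at the bases that differ between the pair. The tail is where isotypes differ most, but here every marked base is a synonymous change. The pair thus encodes the same residues over this stretch.
Tubb2a: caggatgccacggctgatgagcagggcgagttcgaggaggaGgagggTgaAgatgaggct
Tubb2b: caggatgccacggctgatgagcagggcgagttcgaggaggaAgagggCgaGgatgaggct
The pair differed at 3 of the 60 positions and was 96.5% identical over the coding sequence, while the other beta pairs were 80.8% (Tubb5 and Tubb6) to 86.6% (Tubb3 and Tubb6) identical. The first 12 coding bases, which encode the residues read in autoregulation, are shown with the fourth codon in capitals.
Tuba1a, Tuba1b and Tuba1c: atgcgtgagTGC
Tubb5: atgagggaaATC
Tubb2a: atgcgcgagATC
Tubb2b: atgcgagagATC
Tubb3 and Tubb4b: atgagggagATC
Tubg1: atgccgagaGAA
The alpha genes shared a TGC codon at this place and the beta genes shown an ATC codon, whereas Tubg1 carried GAA.

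Counting depth was 16721055 to 21646378 read pairs on genes per pool. Charme itself gave 810, 183 and 276 counts in CharmeWT pools 1 to 3 and 57 and 79 counts in CharmeKO pools 1 and 2. Its log2 fold change (CharmeKO over CharmeWT) was -2.49 (SE 0.549, Benjamini-Hochberg adjusted p = 0.0763, quasi-likelihood test of edgeR). The CharmeWT pools themselves spanned 10.4 to 39.3 CPM (counts scaled to library size and to a TMM factor per pool). That call was lost without CharmeWT pool 1 (-1.68, adjusted p = 0.153) and without CharmeWT pool 3 (-2.72, adjusted p = 0.275), and with the robust form of the edgeR test (adjusted p = 0.120). The cardiomyocyte markers were abundant in all pools, with 40004 to 52779 CPM summed over 7 genes in CharmeWT and 43606 to 46437 in CharmeKO. The 2 CharmeKO pools stood apart from CharmeWT and from each other. Mitochondrial genes took 21.1% of counts in CharmeKO pool 1 against 9.68% to 11.1% in the other pools. A list of 8 salivary gland genes was near 0 in CharmeWT (0.0566 to 0.101 CPM), 328 CPM in CharmeKO pool 1 and 24946 CPM in CharmeKO pool 2. With the mitochondrial and salivary gland genes removed before normalization, Tuba1c had a log2 fold change of 1.05 and an adjusted p of 0.0751 by the same edgeR test. The adipose list (5 of 6 genes called higher, 494 to 654 CPM summed in CharmeWT, 674 and 1931 in CharmeKO), the erythroid list (3 of 6, 867 to 1252, then 2281 and 1616) and the skeletal muscle list (2 of 7) held called genes as well. By the same rule, given below, 1.53% of all genes tested were called higher in CharmeKO. The Schwann cell list had 1 of 6 called and the list of smooth muscle and pericyte genes 1 of 6, Cnn1 of smooth muscle (6.99 to 9.52 FPKM in CharmeWT, 15.8 and 17.9 in CharmeKO). The part of these differences in the tubulin values was not tested.

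In CharmeWT hearts the beta gene Tubb5 and the alpha genes Tuba1b and Tuba1a gave the highest tubulin mRNA levels by FPKM. FPKM divides the scaled count by the exon length. It makes no allowance for reads that fit more than a single gene and were not counted. Of the windows of 100 bases, 65.6% in Tuba1b and 49.2% in Tuba1a, but none in Tubb5, also occurred in another gene. The order between such genes is therefore an order of FPKM as counted. Tubb5 averaged 201 ± 37.2 FPKM (SD, n = 3 pools), Tuba1b 170 ± 40.6 and Tuba1a 168 ± 32.4. Tubb4b followed at 71.0 ± 18.7 FPKM, and Tubb2b (40.9 ± 11.0), Tubb2a (37.3 ± 8.79) and Tubb6 (29.4 ± 8.39) came next. Tuba1c was at 17.6 ± 4.86 and Tubg1 at 15.2 ± 2.93 FPKM, and Tubb3, the isotype known as a neuronal marker, was lowest at 0.543 ± 0.160 FPKM. Between neighbours in this order the ranges over the pools were separate only for Tuba1a above Tubb4b and for Tubg1 above Tubb3. Within each of the 3 pools, however, Tubb5 was above Tuba1b, Tubb4b above Tubb2b, Tubb2b above Tubb2a, Tubb2a above Tubb6 and Tubb6 above Tuba1c. All 10 genes were highest in CharmeWT pool 2 among the CharmeWT pools, and 9 of 10 were lowest in CharmeWT pool 3. On GRCm38 the genes outside the chromosome 15 and 13 clusters are Tubb5 at 35833921 to 35838306 on chromosome 17, Tubb4b at 25222160 to 25224702 on chromosome 2, Tubb3 at 123411424 to 123422015 on chromosome 8, Tubb6 at 67390717 to 67402749 on chromosome 18 and Tubg1 at 101119938 to 101126419 on chromosome 11.

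In CharmeKO hearts Tuba1b (336 ± 111 FPKM, SD, n = 2 pools) and Tuba1a (295 ± 84.1) preceded Tubb5 (264 ± 18.9). The order from Tubb4b (119 ± 2.85) through Tubb2b (74.6 ± 36.5), Tubb2a (60.2 ± 19.2), Tubb6 (46.1 ± 2.08), Tuba1c (36.5 ± 4.48) and Tubg1 (16.6 ± 3.63) to Tubb3 (1.19 ± 0.992) was as in CharmeWT. The ranges overlapped between Tuba1b and Tuba1a, Tuba1a and Tubb5, Tubb2b and Tubb2a, and Tubb2a and Tubb6, and the ranges of the other neighbours were separate.

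**Figure D1:**
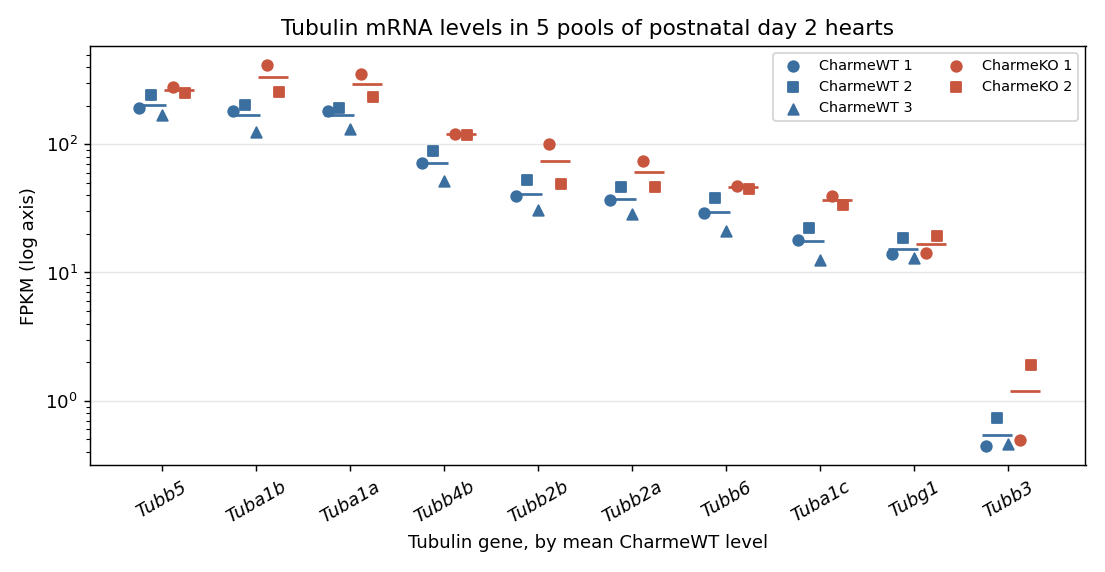
FPKM (log axis) of the 10 tubulin genes, in the order of their CharmeWT mean, with 1 point per pool (blue, CharmeWT; red, CharmeKO) and a line at each group mean. Tubb5, Tuba1b and Tuba1a stand above 100 FPKM in all 5 pools, Tubb3 stays below 2 FPKM, and Tuba1c shows both CharmeKO pools (39.6 and 33.3) above all CharmeWT pools (12.6 to 22.3).

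Of the 10 genes, 1 passed the test, Tuba1c, which rose in CharmeKO hearts. A gene was called when its adjusted p over all genes tested was under 0.1 and its mean FPKM was at least 1 in a genotype, a rule that 1.53% of all tested genes met with a higher level in CharmeKO. All 10 genes had a positive log2 fold change, with a median of 0.78 against 0.02 over all genes tested. An unadjusted p under 0.05 with a higher level was found for 8 of the 10, against 10.6% of all genes. Both CharmeKO pools lay above every CharmeWT pool for 7 of the 10, against 17.8% of all genes. The genes are not independent, since they share the same 5 libraries and some of them share sequence.

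Among the alpha genes, Tuba1c, a broadly expressed isotype, was at 17.8, 22.3 and 12.6 FPKM in CharmeWT pools 1 to 3 and at 39.6 and 33.3 FPKM in CharmeKO pools 1 and 2. The groups did not overlap. Its log2 fold change was 1.05 (SE 0.237), a fold of 2.08, with an adjusted p of 0.0802 by edgeR's quasi-likelihood test. The call was lost without CharmeWT pool 1 (log2 fold change 1.07, adjusted p = 0.235) and without CharmeWT pool 3 (0.86, adjusted p = 0.361), and with library totals in place of TMM scaling (0.89, adjusted p = 0.158), all by the same test.

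Tuba1b, the widely expressed isotype with the most alpha counts on average, had 181, 204 and 125 FPKM in the CharmeWT pools and 414 and 257 FPKM in the CharmeKO pools. Tuba1a, the main alpha tubulin of developing neurons, had 181, 192 and 131 FPKM in CharmeWT and 354 and 235 FPKM in CharmeKO. For both genes every CharmeKO pool was above every CharmeWT pool, and CharmeKO pool 1 was the highest by a wide margin. The log2 fold change was 0.98 (SE 0.262) for Tuba1b and 0.81 (SE 0.236) for Tuba1a, and neither passed edgeR's quasi-likelihood test (adjusted p = 0.124 and 0.146). Without CharmeKO pool 1 these log2 fold changes were 0.60 and 0.49.

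None of the other alpha genes was called by edgeR's test. Tuba4a, whose coding sequence ends without the terminal tyrosine codon of Tuba1a, Tuba1b and Tuba1c, had 31.5, 30.8 and 20.6 FPKM in CharmeWT and 33.1 and 25.7 in CharmeKO, with CharmeKO pool 2 inside the CharmeWT range. Its log2 fold change was 0.09 (SE 0.223, edgeR adjusted p = 0.855). Tuba8, an isotype of striated muscle and testis, had 1.57, 2.35 and 1.5 FPKM in CharmeWT and 0.814 and 2.08 in CharmeKO (log2 fold change -0.27, SE 0.413). Tuba3b gave 6 to 13 counts per pool and Tuba3a 1 count in all, both below the filter, and Tubal3 had no count in any pool.

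Among the beta genes, Tubb5, the most abundant, was at 193, 241 and 168 FPKM in CharmeWT and at 277 and 250 FPKM in CharmeKO. The CharmeKO pools were above all CharmeWT pools, but pool 2 of each genotype was close, 241 against 250 FPKM. The log2 fold change of 0.39 (SE 0.212) did not pass the edgeR test (adjusted p = 0.342). Tubb4b, a widely expressed isotype that is also found in cilia, had 71.9, 89.2 and 51.9 FPKM in CharmeWT and 121 and 117 FPKM in CharmeKO. Here the CharmeKO pools nearly coincided and lay above CharmeWT, with a log2 fold change of 0.75 (SE 0.223, edgeR adjusted p = 0.152).

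Tubb6, a beta isotype present in many non-neuronal tissues, had 29.0, 38.0 and 21.2 FPKM in CharmeWT and 47.6 and 44.7 in CharmeKO, again with no overlap (log2 fold change 0.65, SE 0.232, edgeR adjusted p = 0.197). The pair Tubb2a and Tubb2b, best known from the developing brain, behaved less evenly between the CharmeKO pools. Tubb2a was at 36.9, 46.2 and 28.7 FPKM in CharmeWT and at 73.8 and 46.7 in CharmeKO, so that CharmeKO pool 2 exceeded CharmeWT pool 2 only slightly. Tubb2b was at 39.4, 52.5 and 30.6 FPKM in CharmeWT and at 100.4 and 48.8 in CharmeKO, and CharmeKO pool 2 fell inside the CharmeWT range. The log2 fold change was 0.69 (SE 0.250) for Tubb2a and 0.87 (SE 0.304) for Tubb2b, with adjusted p of 0.201 and 0.195 by the edgeR test. Both values depended on CharmeKO pool 1, without which they were 0.33 and 0.26.

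The Tubb3 value rested on 1 library. Tubb3 gave 17, 24 and 17 counts in the CharmeWT pools and 13 and 79 in the CharmeKO pools, which is 0.442, 0.727 and 0.460 FPKM against 0.493 and 1.90 FPKM. Only CharmeKO pool 2 was high, and CharmeKO pool 1 lay within the CharmeWT range. The log2 fold change was 1.22 (SE 0.538, edgeR adjusted p = 0.263), and it was -0.13 without CharmeKO pool 2 and 1.82 (edgeR adjusted p = 0.0312) without CharmeKO pool 1. The summed level of 10 neuronal markers was 9.57 to 12.9 CPM in CharmeWT and 10.1 and 13.7 CPM in CharmeKO, highest in CharmeKO pool 2. Of these 10 genes 5 were tested and 0 called by edgeR's quasi-likelihood test, with an unadjusted p under 0.05 for 2 of them, Prph and Nefl. The most abundant, Dbh of noradrenaline synthesis (1.07 to 1.5 FPKM in CharmeWT, 1.08 and 0.799 in CharmeKO) and the axonal Stmn2 (0.919 to 1.06 FPKM in CharmeWT, 0.759 and 0.880), were not higher in CharmeKO pool 2. Prph, an intermediate filament gene of peripheral neurons, and the neurofilament gene Nefl were named after their values were seen. Prph was at 0.0759 to 0.534 FPKM in CharmeWT and at 0.213 and 2.09 in CharmeKO, and Nefl at 0.0449 to 0.0862 and at 0.210 and 0.239. The 6 Schwann cell markers summed to 17.6 to 22.4 CPM in CharmeWT and to 15.7 and 37.1 in CharmeKO. Within that list Erbb3 was at 1.70 to 3.11 FPKM in CharmeWT and at 1.51 and 2.67 in CharmeKO, and Sox10 at 0.167 to 0.298 and at 0.186 and 4.20. The called gene of the list was S100b, a calcium-binding protein of glia, at 0.262 to 0.534 FPKM in CharmeWT and at 1.0 and 2.75 in CharmeKO (log2 fold change 2.17, SE 0.517, edgeR adjusted p = 0.0955). The salivary gland list was also highest in CharmeKO pool 2 (Bpifa2, no count in CharmeWT, 2170 and 266768 counts in CharmeKO; Smgc, likewise none, then 1978 and 227254). The part of such cells in the Tubb3 counts was not tested.

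The remaining beta genes were low. Tubb4a, a brain isotype, had 2.49, 3.40 and 2.34 FPKM in CharmeWT and 0.986 and 2.01 in CharmeKO, and was the only beta gene with both CharmeKO pools below all CharmeWT pools. Its log2 fold change was -0.83 (SE 0.361, edgeR adjusted p = 0.259). Tubb1, the platelet isotype, gave 6 to 12 counts per pool (log2 fold change -0.53, SE 0.618).

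Tubg1, the nucleating gamma-tubulin, had 13.9, 18.5 and 13.1 FPKM in CharmeWT and 14.1 and 19.2 FPKM in CharmeKO. The groups overlapped, and the log2 fold change was 0.14 (SE 0.226, edgeR adjusted p = 0.766). Tubg2 was at 0.727 to 1.45 FPKM over all pools (log2 fold change -0.10, SE 0.416). The centriolar delta and epsilon tubulins, Tubd1 and Tube1, had log2 fold changes of 0.41 (SE 0.275) and 1.02 (SE 0.400, edgeR adjusted p = 0.228), and Tube1 rested on 27 to 72 counts per pool.

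**Figure D2:**
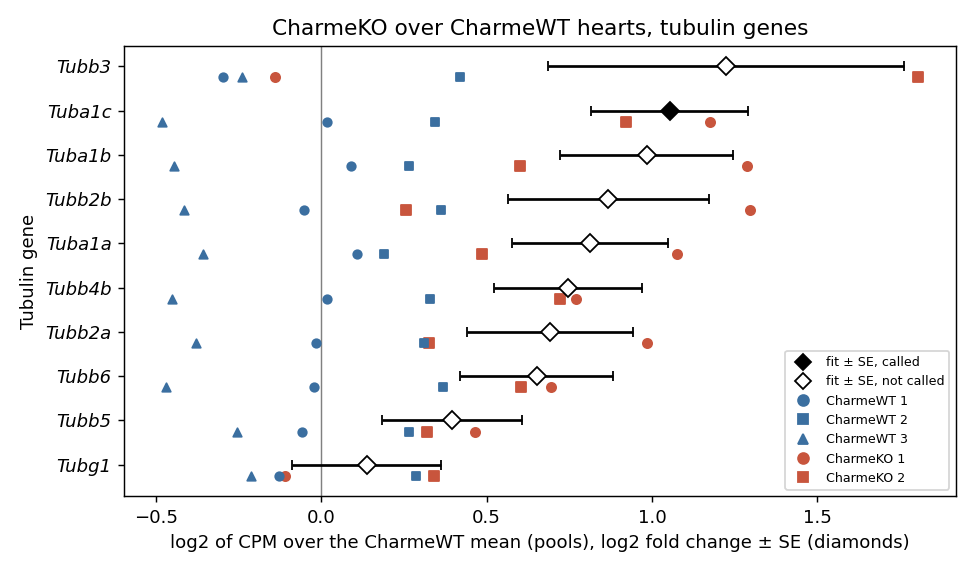
Diamonds give the log2 fold change (CharmeKO over CharmeWT) ± SE of each tubulin gene from edgeR, filled for the called gene, and points below them give the log2 CPM of each pool over the CharmeWT mean (blue, CharmeWT; red, CharmeKO). Fold changes run from 0.14 for Tubg1 to 1.22 for Tubb3, whose CharmeKO pools lie far apart, and Tuba1c at 1.05 is the called gene.

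The calls depended on the test and on CharmeKO pool 2. By edgeR's likelihood ratio test 4 of the 10 genes were called (Tuba1a, Tuba1b, Tuba1c and Tubb4b), where 3.92% of all genes were called higher. DESeq2 called these and Tubb2b, 5 in all, where 4.33% of all genes were called higher. Without CharmeKO pool 2 the quasi-likelihood test called 7 of 10, every gene but Tubb5, Tubb3 and Tubg1, and 16.1% of all genes were called higher in that setting. Without CharmeKO pool 1 it called 2, Tuba1c and Tubb3, with 3.06% of all genes called higher. Leaving out a CharmeKO pool leaves a lone CharmeKO library, which is assumed to vary like the CharmeWT pools.

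Summed over each class, alpha tubulin mRNA was at 826, 899 and 579 CPM in the CharmeWT pools and at 1631 and 1083 CPM in the CharmeKO pools, a ratio of means of 1.77. Beta tubulin mRNA was at 1019, 1285 and 842 CPM in CharmeWT and at 1644 and 1382 CPM in CharmeKO, a ratio of 1.44. As a percent of counts on genes, without TMM scaling, the ratios were 1.56 for alpha and 1.29 for beta tubulin. Beta tubulin was then at 0.104, 0.132 and 0.0916 in CharmeWT and at 0.139 and 0.142 in CharmeKO. For both sums the CharmeKO pools lay above all CharmeWT pools. The alpha to beta ratio of counts was 0.811, 0.699 and 0.687 in CharmeWT and 0.992 and 0.784 in CharmeKO, where CharmeKO pool 2 fell within the CharmeWT range.

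The isotype composition within each class does not depend on how libraries are scaled to each other. The shares of a class add up to the whole, so a share can fall while the level of its gene does not. In the alpha class, Tuba1b took 41.0%, 42.5% and 40.4% of the counts in CharmeWT and 47.6% and 44.5% in CharmeKO. Tuba1a took 39.5%, 38.5% and 40.8% in CharmeWT and 39.2% in both CharmeKO pools. The Tuba4a share was 14.1%, 12.7% and 13.2% in CharmeWT and 7.51% and 8.79% in CharmeKO, while its level had a log2 fold change of 0.09. Tuba1c held 4.93%, 5.67% and 4.97% in CharmeWT and 5.56% and 7.03% in CharmeKO, and Tuba8 under 1%. The 2 CharmeKO pools were thus above CharmeWT for Tuba1b (difference of means 4.78 percentage points) and below for Tuba4a (-5.18 points), whereas Tuba1a (-0.43 points) and Tuba1c (1.10 points) overlapped. With the 3 alpha members alone as the total, the differences were 2.36 points for Tuba1b and -3.21 points for Tuba1a, each with an exact permutation p of 0.2. The Tuba1c difference was 0.364 points without CharmeKO pool 2 and 1.84 without CharmeKO pool 1.

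In the beta class, Tubb5 took 62.9%, 62.4% and 66.4% of counts in CharmeWT and 56.1% and 60.3% in CharmeKO. Tubb4b took 14.7%, 14.5% and 12.9% in CharmeWT and 15.4% and 17.7% in CharmeKO. The Tubb5 share was lower in both CharmeKO pools (-5.72 points) and the Tubb4b share higher (2.50 points). The level of Tubb5 had a log2 fold change of 0.39. The Tubb5 difference was -3.62 points without CharmeKO pool 1, and the Tubb4b difference 1.35 points without CharmeKO pool 2. Tubb2b made up 8.88%, 9.37% and 8.35% in CharmeWT but 14.0% and 8.10% in CharmeKO, so that the pools disagreed. Tubb2a was at 5.48% to 5.83% in CharmeWT and at 7.23% and 5.44% in CharmeKO, and Tubb6 at 6.14% to 7.20% and at 7.06% and 7.88%. Tubb3 was at 0.0811% to 0.106% in CharmeWT and at 0.0560% and 0.256% in CharmeKO. Tubb4a was at 0.543% to 0.618% in CharmeWT and at 0.134% and 0.324% in CharmeKO.

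Of the 12 shares tested by a two-sided exact permutation test over the pools, 5 reached the smallest p that 3 against 2 pools allow, 0.1 (Tuba1b, Tuba4a, Tubb5, Tubb4b and Tubb4a), and the lowest Benjamini-Hochberg adjusted p was 0.24. The design therefore cannot reach a p under 0.05 for any share. Shares within a class are tied to each other, so these 5 are not independent results. Counting error was small beside these differences, with 95% Clopper-Pearson intervals of at most ± 0.905 percentage points for any share in any pool, an interval that covers counting error only. Computed per length from FPKM, the mean shares were 43.9% and 47.8% for Tuba1b in CharmeWT and CharmeKO, 43.8% and 42.3% for Tuba1a, and 7.18% and 4.29% for Tuba4a. On the same FPKM scale Tubb5 held 52.7% and 46.8% of beta tubulin and Tubb4b 18.4% and 21.2%.

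**Figure D3:**
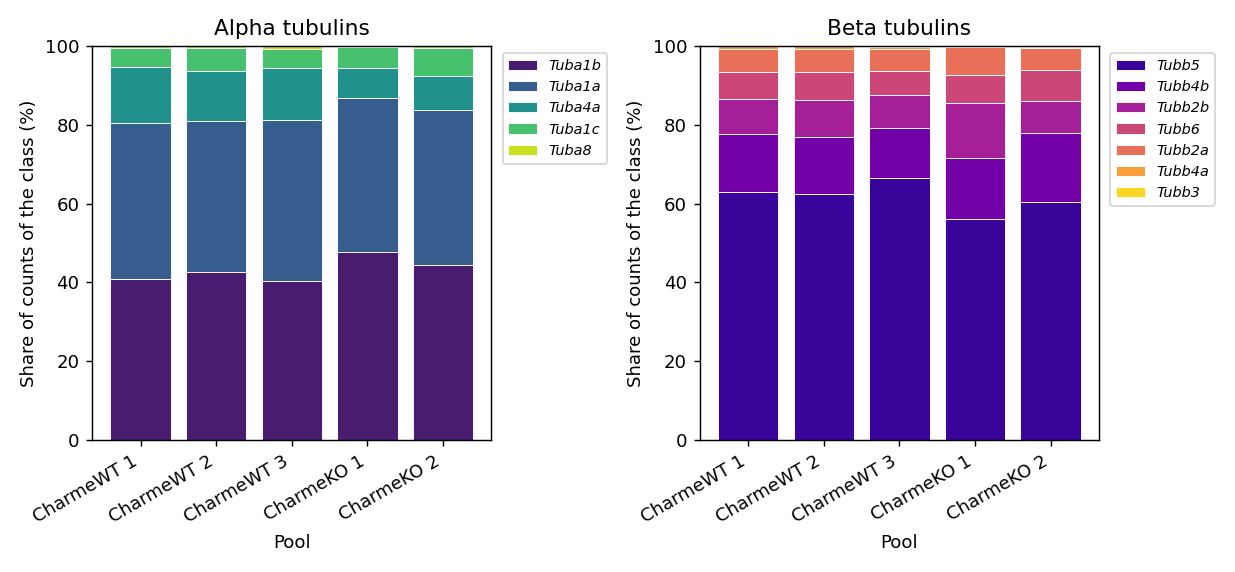
Stacked bars give the share of each gene in the alpha tubulin counts (left) and beta tubulin counts (right) of each pool, in percent. The Tuba4a segment is narrower in the CharmeKO pools (7.51% and 8.79%) than in CharmeWT (12.7% to 14.1%), and the Tubb5 segment ends lower (56.1% and 60.3% against 62.4% to 66.4%).

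Reads could not always be told apart between isotypes. The authors counted read pairs that mapped to a single place, and of the windows of 100 bases along each transcript 49.2% in Tuba1a, 65.6% in Tuba1b and 53.4% in Tuba1c also occurred in a transcript of a gene at another place. The share of such windows was 36.9% in Tubb2a, 27.7% in Tubb2b, 29.2% in Tubb4b and 4.11% in Tubg1, and none was found in Tubb5, Tubb3 and Tubb6. A level per full length is therefore low by an unknown amount for the first group. The order of Tubb5 against Tuba1b and Tuba1a by FPKM, and the alpha to beta ratio, are open to that loss. The reads were paired and, before trimming, longer than 100 bases, and a pair can be placed when 1 mate covers a difference. Windows of 100 bases can therefore overstate the part of the read pairs that was lost, also in the shares that follow. With the count of windows not found elsewhere as the length, Tuba1b rather than Tuba1a led the alpha class more clearly, at 56.2% ± 1.09 in CharmeWT (SD, n = 3) and 59.5% ± 1.86 in CharmeKO (SD, n = 2). Tuba1a was then at 35.2% ± 1.27 and 33.0% ± 0.550, with both CharmeKO pools below all CharmeWT pools, Tubb5 at 45.9% ± 2.33 and 40.0% ± 2.68, and Tubb4b at 24.2% ± 1.37 and 27.3% ± 3.13 with overlapping pools. Outside the tubulin lists 13 genes shared such windows with the 10 tubulin genes, of which 4 had no row in the counts table, and the other 9 summed to 28 to 72 counts in CharmeWT and to 60 and 63 in CharmeKO, beside 4671 to 9464 counts of Tuba1a.

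The genes that fold, nucleate, modify and bind tubulin were examined as lists, each described by its counts of calls beside the median log2 fold change over all genes (0.02). The chaperonin CCT, which folds tubulin and actin, had 8 positive values of 8, a median of 0.57 and 0 calls by edgeR's quasi-likelihood test. DESeq2 called 3 of these genes, where 4.33% of all genes were called higher. The likelihood ratio test called 1, where 3.92% of all genes were called higher. Its most abundant members were Cct5 (75.8 to 93.5 FPKM in CharmeWT, 147 and 107 in CharmeKO, log2 fold change 0.63, SE 0.198) and Cct2 (77.2 to 83.5, then 97.2 and 84.7, log2 fold change 0.19, SE 0.168). The median of the CCT list was 0.78 without CharmeKO pool 2 and 0.29 without CharmeKO pool 1, each with a lone CharmeKO library. With a correction for gene length and GC content it was 0.39. Prefoldin, which passes nascent tubulin to CCT, had 0 of 6 called and a median of 0.28, with Pfdn5 at 0.31 and Pfdn1 at 0.25. The prefoldin median was 0.03 with the length and GC correction. The tubulin cofactors, which assemble the heterodimer, had 0 of 6 called and a median of 0.01, with Tbca at 0.39 and Tbcb at 0.09.

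The 16 genes of the gamma-tubulin ring complex and augmin, which nucleate microtubules, had 0 calls and a median of 0.37. With the length and GC correction this median was 0.18, and without CharmeKO pool 1 it was 0.08. Mzt1 was at 0.35 (SE 0.194) and Mzt2 at -0.10 (SE 0.208). The 15 tubulin modifying enzymes had 0 calls and a median of -0.20, with 11 negative values. With the length and GC correction their median was -0.02. Svbp (the partner of the detyrosinating vasohibins) was at 0.23 and the deacetylase Sirt2 at -0.20. The 3 genes of autoregulation, Ttc5, Scaper and Cnot11, had values near 0 (0.10, 0.16 and 0.01, 0 calls), with Ttc5 at 5.10 to 5.93 FPKM in CharmeWT and 5.87 and 6.03 FPKM in CharmeKO.

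Microtubule-binding and plus-end proteins had a median of -0.36, with 16 negative values of 20 and 1 call. With the length and GC correction the median was -0.10 with 0 calls. Of all 14880 genes tested, 78 were called lower and 227 higher by the quasi-likelihood test. The called gene was Clasp1, which stabilizes plus ends. It was at 17.6, 16.3 and 18.8 FPKM in CharmeWT and fell to 10.4 and 10.9 FPKM in CharmeKO (log2 fold change -0.72, SE 0.175, edgeR adjusted p = 0.0989). The Clasp1 call was lost in 12 of 20 alternatives, among them without each CharmeWT pool in turn (edgeR adjusted p of 0.205 to 0.478) and with library totals (0.114), while the value stayed negative. It was lost as well with the length and GC correction (log2 fold change -0.52, edgeR adjusted p = 0.155). The dynactin subunit Dctn1 (-0.54, SE 0.212) and the end-binding protein Mapre2 (-0.49, SE 0.165) were the most abundant of the list and were not called. Among 10 destabilizing and severing proteins 1 was called, Fignl1, a severing-family ATPase, at 2.14 to 2.70 FPKM in CharmeWT and 7.13 and 3.92 in CharmeKO (log2 fold change 1.21, SE 0.273, edgeR adjusted p = 0.0808). The Fignl1 call was lost in 8 of 20 alternatives, among them without each CharmeWT pool in turn (edgeR adjusted p of 0.133 to 0.405) and without CharmeKO pool 1, where the log2 fold change was 0.72 (adjusted p = 0.130). Stmn1, which sequesters tubulin dimers, was at 43.2 to 62.0 FPKM in CharmeWT and 90.4 and 75.0 in CharmeKO (0.67, SE 0.198, not called), and Katna1 of the severing katanin was at 0.22.

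Spindle microtubule proteins gave the most calls, with 8 of 10 higher in CharmeKO and a median of 1.54. Of all genes tested 1.53% were called higher. With the length and GC correction the list median was 1.42. Tpx2, which recruits Aurora A to the spindle, was at 7.64, 8.27 and 6.34 FPKM in CharmeWT and rose to 23.9 and 16.7 FPKM in CharmeKO (log2 fold change 1.45, SE 0.209, edgeR adjusted p = 0.0336). Nusap1 (1.68, SE 0.272), Ckap2l (1.60, SE 0.268) and Ckap2 (1.53, SE 0.258) rose as well, each with both CharmeKO pools above all CharmeWT pools. Numa1, the most abundant, was at -0.64 (SE 0.191) and not called. The spindle calls were lost without CharmeWT pool 1 and without CharmeWT pool 3 (0 of 10 in each by the quasi-likelihood test, with list medians of 1.59 and 1.38), settings in which 2 and 0 of all genes were called and 2190 and 1315 had an unadjusted p under 0.05. The 6 proliferating-cell markers moved in the same direction as the tubulins, at 243 to 344 CPM summed in CharmeWT and 1221 and 674 CPM in CharmeKO. Of the 6 markers 5 were called higher, beside the same 1.53% of all genes. Top2a was at 7.79 to 11.8 FPKM in CharmeWT and 44.1 and 20.0 in CharmeKO, and Mki67 at 8.78 to 12.6 and at 40.9 and 21.9. By FPKM, CharmeKO pool 1 was the higher of the CharmeKO pools in 5 of the 6 markers, all but Aurkb (6.04 in pool 1 and 7.91 in pool 2). It was also the higher by FPKM for 8 of the 10 tubulin genes. FPKM and CPM carry the TMM scaling factor, which was 0.845 for CharmeKO pool 1 and 1.03 for CharmeKO pool 2. As a percent of counts on genes, without that factor, summed beta tubulin was 0.139 in CharmeKO pool 1 and 0.142 in CharmeKO pool 2. The part of dividing cells in the tubulin values was not tested.

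**Figure D4:**
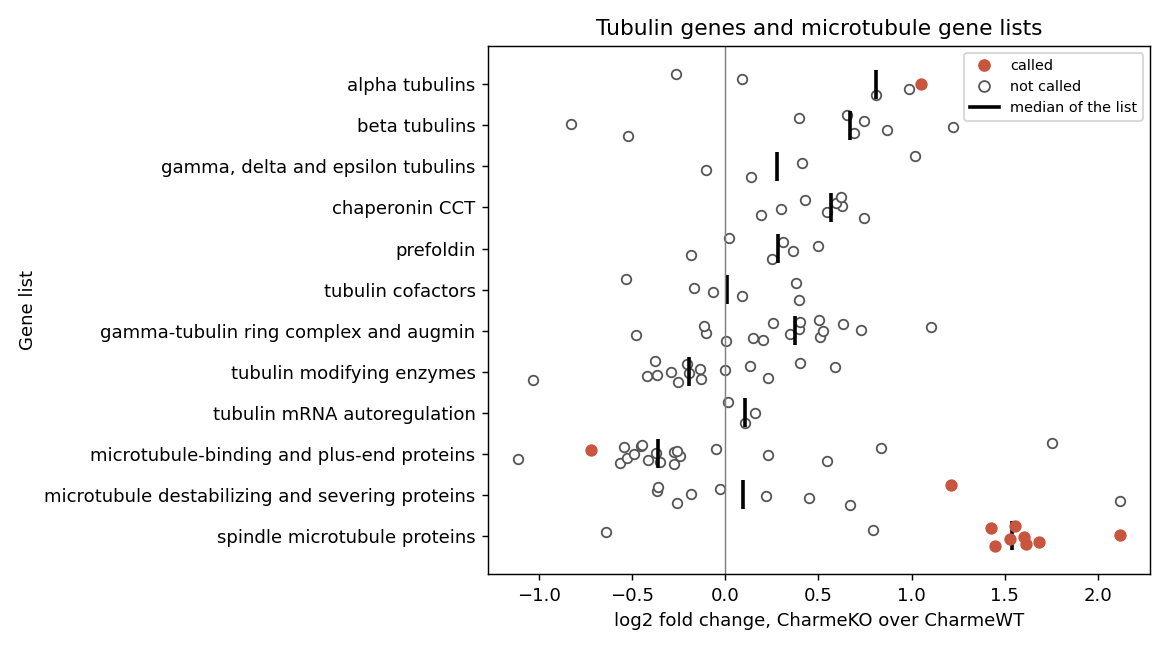
Each point is the log2 fold change (CharmeKO over CharmeWT) of a tested gene, by gene list, filled red when called, with a bar at the list median. The spindle list holds 8 called genes around a median of 1.54, while alpha and beta tubulins have medians of 0.81 and 0.67 with 1 call between them, Tuba1c.

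The genes most like the tubulins over the pools were sought outside the tubulin lists, among 3929 protein-coding genes of at least 10 FPKM, as those with the smallest root mean square difference of centred log2 CPM from the summed alpha and beta tubulin profile over the 5 pools. They were Snrpf (difference 0.0503), Cisd3 (0.0565), Gapdh (0.0629), Stmn1 (0.0631), Mcm7 (0.0644) and Jpt1 (0.0652). Snrpf is a core spliceosome protein, Gapdh a glycolytic enzyme and Mcm7 a subunit of the replicative helicase. The quasi-likelihood test called none of these 6 (adjusted p of 0.137 to 0.226 in edgeR), which had log2 fold changes of 0.59 (Mcm7 and Snrpf) to 0.75 (Gapdh). The 6 genes were chosen on these same pools, so fold changes near those of the tubulins follow from the choice. Over 5 pools this likeness is a description of these libraries.

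Promoters were read for the 7 of 10 genes with an entry in the RefSeq promoter windows (GRCm38.p6, 250 bases before to 50 after the start). Tubb2b, Tubb6 and Tubg1 had no entry. Both strands were searched for CCAAT, the box bound by NF-Y, and for TTTGAA, the cell cycle homology region known from promoters of genes expressed late in the cell cycle. CCAAT was found in 5 of the 7 windows (Tubb4b, Tubb3, Tuba1a, Tuba1c and Tubb5) and in 37.4% of all 32851 windows of this length. The boxes of Tuba1a (at -176) and Tubb3 (at -77) lie inside the GENCODE bounds of these genes given above. Those bounds reach further upstream than the RefSeq start. TTTGAA was found in Tubb4b alone and in 17.9% of all windows, and the pair occurred together in 6.95%. The 250 bases before the Tubb4b start are shown because this window held 5 CCAAT boxes and the TTTGAA element, none overlapping another (minus strand, chr2:25224703-25224952), and those before the Tuba1c start because it is the called gene (plus strand, chr15:99029641-99029890). Capitals mark the motifs, and in Tuba1c the box lies on the opposite strand.
Tubb4b: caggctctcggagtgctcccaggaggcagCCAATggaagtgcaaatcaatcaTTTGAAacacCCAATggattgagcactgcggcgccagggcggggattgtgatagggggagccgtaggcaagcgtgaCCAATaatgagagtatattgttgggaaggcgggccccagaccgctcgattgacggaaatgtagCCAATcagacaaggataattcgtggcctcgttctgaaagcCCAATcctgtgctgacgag
Tuba1c: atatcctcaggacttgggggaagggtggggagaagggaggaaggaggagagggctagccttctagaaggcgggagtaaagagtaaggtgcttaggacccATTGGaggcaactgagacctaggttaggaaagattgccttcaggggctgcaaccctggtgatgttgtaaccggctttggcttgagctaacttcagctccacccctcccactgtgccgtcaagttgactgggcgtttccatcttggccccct
A match of letters is a description of the window and says nothing of factor binding. The log2 fold changes of the 5 genes with a CCAAT box ran from 0.39 (Tubb5) to 1.22 (Tubb3), and those of the 2 without it, Tubb2a and Tuba1b, were 0.69 and 0.98.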

How the data were processed

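Whole hearts of PN2 mice were profiled in 5 pooled libraries (Illumina Stranded mRNA Prep, paired-end). The authors trimmed reads with Cutadapt and Trimmomatic, mapped them to GRCm38 (mm10) with STAR and deposited raw counts of uniquely mapped, reverse-stranded read pairs per gene (Ensembl release 87). A deposited FPKM table was not used here. Of 49671 genes, 49411 matched GENCODE M21 and 260 did not. FPKM was recomputed from counts with TMM-scaled libraries and the union exon length. The filter asked for 10 counts or more in 2 pools or more, and the genes left were tested with edgeR 4.0.16 (R 4.3.3) by the quasi-likelihood test, CharmeKO against CharmeWT, Benjamini-Hochberg adjusted over all 14880 genes. Genes were called at an adjusted p under 0.1 when FPKM averaged 1 or more in either genotype. 23 tested genes had no length. SE is the log2 fold change over the root of F. Shares were tested by exact permutation (SciPy 1.17.1). DESeq2 1.42.0 and other filters, scalings and left-out pools served as alternatives. The procedure was tested on 3 sets of simulated counts, without the FPKM filter. There the quasi-likelihood test at an adjusted p under 0.1 recovered 59.7% of 2-fold and 99.3% of 4-fold changes. Of its calls, 17.2% were unchanged genes. Charme has no length here and is given in counts and CPM. Genes named were the 10 tubulins, the other tubulin genes with a count, the 2 most abundant and up to 4 called genes of each list, and the 6 genes of nearest profile. Members and lists were chosen with earlier results of these data known.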

Additional observations from a re-analysis of the deposited data

How the results depend on the processing

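The 305 calls over all genes became 933 under edgeR's likelihood ratio test and 1122 under DESeq2, 105 with library totals only, 111 at an adjusted p under 0.05 and 47 with the replicate block and a length and GC correction together; the replicate block alone gave 210. Leaving out a pool gave 0 (without CharmeWT pool 3) to 4607 calls (without CharmeKO pool 2). The 1 tubulin call became 4 under the likelihood ratio test, 5 under DESeq2, and 0 with library totals only, at an adjusted p under 0.05, with the replicate block, and with the block and the length and GC correction; leaving out a pool gave 0 to 7. The cause of these shifts was not tested. Same-numbered pools correlated weakly in their deviations (0.137 for pools 1, 0.0778 for pools 2). The deviations of 2 CharmeKO pools from their mean mirror each other, so these values are not independent readings. With 2 pairs a pairing cannot be settled, and no label ties a number to a litter or batch. The pools are therefore taken to share only a number. With the replicate block Tuba1c had a log2 fold change of 0.87 and an adjusted p of 0.128 (edgeR). Library totals moved the median log2 fold change of all genes from 0.02 to -0.13; all 10 tubulin genes stayed positive under every scaling run, and Tuba1c was then at 0.89 (adjusted p = 0.158). Over the left-out pools the log2 fold change ran from -0.13 to 1.82 for Tubb3 and from -0.11 to 0.34 for Tubg1, both negative without CharmeKO pool 2. Share differences ran from -1.0 to 0.178 percentage points for Tuba1a (positive without CharmeWT pool 3), from -0.263 to 1.53 for Tubb2a and from -0.764 to 5.15 for Tubb2b (both negative without CharmeKO pool 1), and from -0.0402 to 0.160 for Tubb3 (negative without CharmeKO pool 2). Of 200 alternative values for the log2 fold changes of the tubulin genes, 178 kept direction and side of the threshold. Some settings, such as no FPKM filter, leave the fold change as it is by construction. For the shares 68 of 72 kept direction, and no share could pass a threshold of 0.05 in the permutation test. A share computed on windows not found in a gene elsewhere was added after the data were seen. With 3 and 2 pools of littermates' hearts, a genotype difference, the 2 CharmeKO pools' composition and the smaller number of hearts per CharmeKO pool cannot be told apart.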
